A study of Homo sapiens with 6 samples.

Results

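RNA that co-purified with Ago2 was compared between the first collection date, 22 August (2 libraries), and both later dates, 5 and 18 September (4 libraries), with the mimic as a term in the fit, so that all 6 libraries of the series were used. Of 48162 genes in the table, 16689 passed a filter on low counts and were tested, of which 155 belonged to lists of interferon-response genes and 16534 did not. HEK293 cells are a standard line derived from human embryonic kidney. In every library the cells carried transfected Flag-tagged Ago2, the protein that holds small RNAs in the silencing complex, and RNA was sequenced after precipitation through the Flag tag. Each date gave 1 library from cells that also received a mimic of microRNA-219 and 1 from cells that received a negative control mimic. A level in such a precipitate joins the abundance of a transcript with its capture by Ago2, and input RNA was not analysed here. The labels give the dates but do not say whether they were separate cultures, so p-values measure the spread between these libraries, which may be technical. In bulk samples, fewer cells making a transcript and less of it per cell cannot be told apart.

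Type I and type III interferons are secreted when cytosolic sensors detect foreign or misplaced nucleic acid. They signal through JAK kinases to transcription factors that include STAT2 and IRF9, which bind the interferon-stimulated response element in promoters and induce antiviral effectors. The mitochondrial genome is transcribed inside the organelle as long polycistronic RNAs, which are cut into mRNAs for subunits of the respiratory chain.

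Depth ran from 20233819 to 34408699 counts per library. AGO2, the transfected gene, took 10.6% to 18.0% of counts and did not separate the dates (log2 difference -0.09, SE 0.23, adjusted p = 0.9999, edgeR). All 14 genes of the HEK293 list, which also holds the housekeeping gene ACTB, passed the filter. Transcripts of intestinal epithelium and plasma cells summed to 0.508, 17.6 and 34.7 CPM in the mimic libraries of 22 August, 5 September and 18 September, and to 53.8, 1.40 and 46.4 CPM in the control libraries. They were thus low in 1 library of 22 August and in 1 of 5 September, and their part in the results was not tested. HBB, which encodes beta-globin, had at most 2 counts in any library but the control of 5 September, where it had 23319. In what follows, levels are CPM (counts scaled to library depth, with TMM factors), log2 differences are 22 August minus the later dates, and adjusted p-values come from the quasi-likelihood test of edgeR with Benjamini-Hochberg adjustment over all tested genes.

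On 22 August, 58 genes were higher than on the later dates (0.348% of tested genes at an adjusted p under 0.05) and 0 were lower (0%). Of the 58, 51 belonged to the interferon lists and 7 did not. At an unadjusted p under 0.05 there were 434 higher and 283 lower genes. limma-voom called 56 higher and 0 lower, and DESeq2 89 higher and 3 lower (CNTN1, NELL2 and PDE3A). In all 58 genes both libraries of 22 August lay above all 4 later libraries. The genes were called from these same values, so this is no further support for them. Over all tested genes the arrangement was found in 1045 (6.26%). The opposite arrangement was found in 911 (5.46%). The median log2 difference over all tested genes was -0.003, and 13127 of them (78.7%) had a 95% confidence interval within a 2-fold change either way.

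Promoter windows of 5 called effectors are shown because they hold the core letters of the interferon-stimulated response element. Each line holds 60 bases from upstream of the transcription start in RefSeq (GRCh38.p14), 5′ to 3′ on the strand of the gene. The stretches do not adjoin the start. Their first matches lie at -116 (IFIT1), -113 (ISG15), -143 (OAS3), -156 (IFI6) and -130 (BST2) bases from it. Matches to GAAANNGAAA or its reverse complement TTTCNNTTTC are in capitals.
IFIT1, chr10:89392482-89392541 (+): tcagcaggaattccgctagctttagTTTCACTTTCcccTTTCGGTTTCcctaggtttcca
ISG15, chr1:1013359-1013418 (+): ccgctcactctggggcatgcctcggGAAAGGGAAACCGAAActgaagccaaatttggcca
OAS3, chr12:112938306-112938365 (+): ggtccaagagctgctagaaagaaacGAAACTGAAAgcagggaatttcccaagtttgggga
IFI6, chr1:27672314-27672373 (-): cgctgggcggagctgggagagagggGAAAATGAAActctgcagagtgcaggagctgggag
BST2, chr19:17405726-17405785 (-): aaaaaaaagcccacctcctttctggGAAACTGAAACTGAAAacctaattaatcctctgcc
The motif was sought on both strands in windows from 250 bases before to 50 bases after each start, and overlapping matches were joined in the capitals. Of the 51 called interferon-list genes, 40 had a promoter entry and 24 of these held a match. Among the 104 interferon-list genes that were tested and not called, 28 of 80 with an entry (35.0%) held one. Over all tested genes the share was 326 of 12056 (2.70%), and among all promoters listed 996 of 27305 (3.65%). A match is a description of letters and not a bound site. The 7 called genes outside the lists had no entry.

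Effectors of the antiviral response made up 45 of the 58 called genes, out of 96 tested effectors, beside 0.348% of all tested genes called. Their median log2 difference was 1.23 over the tested members. RSAD2, which encodes viperin, had 35.0 CPM in the mimic library and 25.7 in the control library of 22 August, while the later mimic libraries had 2.43 and 1.25 CPM and the later control libraries 0.917 and 1.19 CPM. Its log2 difference of 4.41 (SE 0.24, adjusted p = 1.47e-06) was the largest among called genes. OAS2, which makes 2′-5′ oligoadenylates on sensing double-stranded RNA, had 19.3 and 12.6 CPM on 22 August and 0.712 to 1.16 CPM later (log2 4.15, SE 0.21, adjusted p = 1.47e-06). IFIT1, which binds RNA lacking host cap methylation, had 158 and 187 CPM against 12.7 to 22.6 CPM later (log2 3.38). IFIT3, its partner, had 178 and 142 CPM against 13.7 to 23.0 CPM (log2 3.32). ISG15, a ubiquitin-like modifier, had 54.5 and 74.9 CPM against 7.10 to 12.1 CPM (log2 2.77), and BST2, which tethers budding virions to the cell surface, had 4.66 and 6.196 CPM against 0.473 to 0.916 CPM (log2 2.81). In none of these genes did the dates overlap.

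Not all effector genes passed the test. The interferon-regulated genes TMEM140 and PARP11 had log2 differences of -0.05 and -0.08, each with an adjusted p of 0.9999. ADAR, the RNA-editing enzyme, had 0.61 (adjusted p = 0.638), and EIF2AK2, the double-stranded RNA-dependent kinase, had 0.74 (adjusted p = 0.104). In all, 90 of 96 effectors were above 0, beside 8201 of all 16689 tested genes.

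Among the nucleic acid sensors and their adaptors, 2 of 16 tested members were called, beside 0.348% of all tested genes. DDX58, which encodes the sensor RIG-I, had 94.2 and 84.8 CPM on 22 August and 12.4 to 18.1 CPM later (log2 2.59). IFIH1, which encodes the sensor MDA5, had 38.4 and 28.7 CPM against 5.79 to 8.98 CPM (log2 2.20). The adaptor MAVS, through which both signal, had 54.4 and 30.03 CPM against 37.4 to 41.2 CPM (log2 0.08, adjusted p = 0.9999), so its 2 libraries of 22 August lay on either side of the later ones. The DNA sensor gene MB21D1 had a log2 difference of -0.44 (adjusted p = 0.9999). The list median was 0.21.

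Among 21 tested genes of interferon signalling, 3 were called, IRF7 and USP18 among them, beside 0.348% of all tested genes. IRF7, a transcription factor that amplifies interferon production, had 60.2 and 50.2 CPM on 22 August against 13.4 to 16.3 CPM later (log2 1.84). USP18, which removes ISG15 and restrains the receptor, had 52.7 and 55.9 CPM against 22.4 to 32.6 CPM (log2 0.99, adjusted p = 0.0486). The receptor chains IFNAR1 and IFNAR2 and the kinases JAK1 and TYK2 had log2 differences from -0.12 to 0.14, each with an adjusted p of 0.9999. IRF9, the DNA-binding partner of STAT2, had 1.97 and 2.15 CPM against 0.664 to 1.11 CPM without passing the test (log2 1.37, adjusted p = 0.193).

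Transcripts of the interferons themselves were near the limit of detection and were below the filter. IFNB1, the type I interferon made by most cell types, had 8 and 5 counts on 22 August and 1 to 4 counts in the later libraries. IFNL1, a type III interferon, had 5 and 3 counts against 0 to 3, and IFNL3, a near-identical copy of IFNL2, had 7 and 3 counts against 0 in all 4. Tested in edgeR with no filter on low counts, none passed, with adjusted p-values of 0.9993 for IFNB1 and IFNL1 and 0.470 for IFNL3 (unadjusted 0.00539).

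In the antigen presentation list, 21 of 22 tested genes were above 0, with a median of 0.38, and 1 was called, beside 0.348% of all tested genes. TAP1, a peptide transporter of the class I pathway, had 47.8 and 35.98 CPM against 19.6 to 21.98 CPM (log2 0.996, SE 0.15, adjusted p = 0.00926). It did not pass without the mimic library (0.643) or the control library (0.0931) of 22 August, without the mimic library of 5 September (0.0584) or against 5 September alone (0.0804). HLA-B, a class I heavy chain, had 138 and 204 CPM against 96.2 to 107 CPM and did not pass (log2 0.73, adjusted p = 0.143), but passed with DESeq2 (0.0115). Both libraries of 22 August were above all later ones in 13 of the 22 genes (59.1%), beside 6.26% of all tested genes.

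The called interferon-list genes stood about equally far from each later date and with each mimic. Over the 51 genes the median log2 difference was 2.22 between mimic libraries and 2.12 between control libraries, and between 18 and 5 September their median was 0.02, with 23 of 51 below 0. Over all 155 tested interferon-list genes these medians were 0.67, 0.62 and 0.006. The 51 were called in a fit that pools both later dates with the mimic as a term. Genes that vary between mimics or later dates pass less often there, so the closeness of the 51 is partly set by their choice. Some of these genes share genomic positions, and since the files do not state whether counting used strand, their reads cannot be fully told apart: CMPK2 overlaps RSAD2, DTX3L overlaps PARP9, PARP10 overlaps GRINA, and IFIT1, IFIT2 and IFIT3 lie within LIPA.

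**Figure D1:**
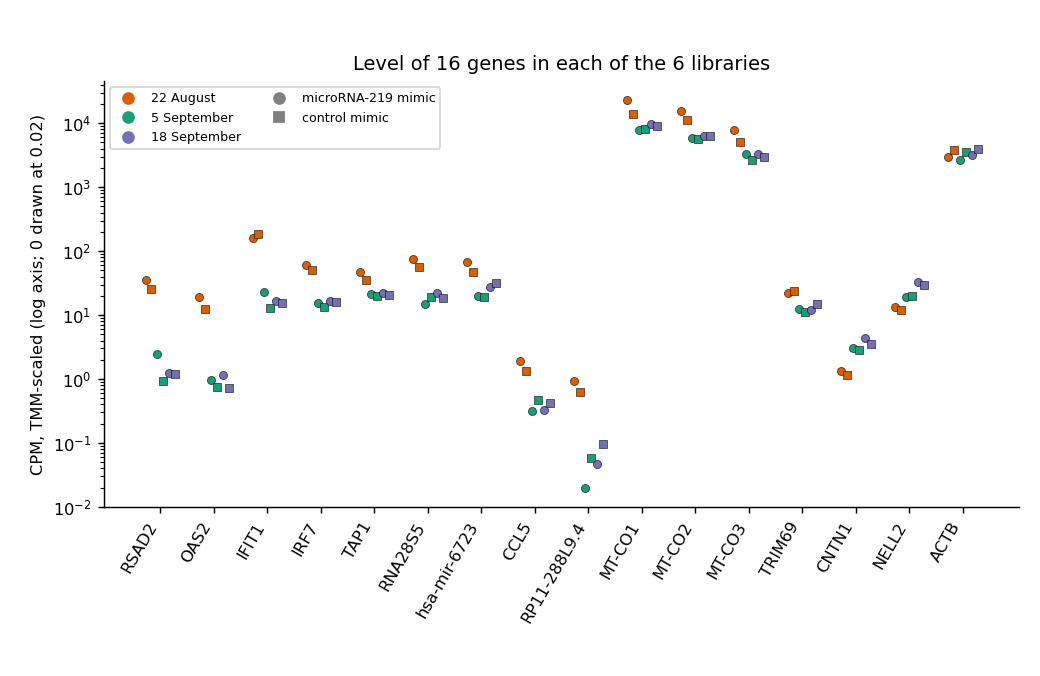
Level of 16 genes in each of the 6 libraries, as TMM-scaled CPM on a log axis, with colour for the date and shape for the mimic; the 1 library at 0 is drawn at 0.02. In RSAD2, OAS2, IFIT1, IRF7, TAP1 and the 7 called genes outside the interferon lists, both libraries of 22 August lie above all 4 later ones, while those of ACTB, a housekeeping gene, overlap.

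Outside the interferon lists, 7 genes were higher on 22 August: RNA28S5, MT-CO1, MT-CO2, MT-CO3, hsa-mir-6723, RP11-288L9.4 and CCL5. Of these, RP11-288L9.4 passed the filter on low counts only through the libraries of 22 August. Of 16534 tested genes outside the lists, 941 had both libraries of 22 August above all later ones and 911 had both below, and 13057 (79.0%) had a confidence interval within a 2-fold change. Of 13858 protein-coding genes outside all interferon lists and not mitochondrial, 1 was called, which was CCL5. The 7 depended on the libraries used: without either library of 22 August only RNA28S5 was called outside the lists, while without the control library of 5 September 163 genes were called there, 110 higher and 53 lower.

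RNA28S5, annotated as a 28S ribosomal RNA pseudogene (hg19 chrX:108297361-108297792, minus strand), had 76.5 CPM in the mimic library and 56.8 in the control library of 22 August. On 5 and 18 September the mimic libraries had 14.97 and 22.2 CPM, and the control libraries 19.2 and 18.7 CPM. Both libraries of 22 August thus stood above every later one, and the later ones lay close together. The log2 difference was 1.82 (SE 0.18, 95% confidence interval 1.42 to 2.22, adjusted p = 0.000228, edgeR). It was 2.07 between mimic libraries and 1.58 between control libraries. RNA28S5 was the 1 gene outside the lists that was called under all 18 settings tried. Of the others, MT-CO2 and MT-CO3 were called under 15, RP11-288L9.4 and hsa-mir-6723 under 14, CCL5 under 12 and MT-CO1 under 11. The setting without AGO2 and mitochondrial genes did not test MT-CO1, MT-CO2 and MT-CO3, so they could not be called there. The sequence of RNA28S5 resembles that of the ribosomal RNA, so reads from either cannot be told apart here.

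All 13 mRNAs encoded by the mitochondrial genome had a log2 difference above 0, with a median of 0.85, and 3 of the 13 were called, beside 0.348% of all tested genes. These 3 encode the core subunits of cytochrome c oxidase, the last complex of the respiratory chain. MT-CO1 had 22693 and 13718 CPM on 22 August and 7961 to 9781 CPM later (log2 1.03, SE 0.18, adjusted p = 0.0356). MT-CO1 did not pass with limma-voom (adjusted p = 0.0848), library size alone (0.1555) or 3 dates (0.0795). MT-CO2 had 15305 and 11135 CPM against 5611 to 6341 CPM (log2 1.12, SE 0.16, adjusted p = 0.00532). MT-CO3 had 7849 and 5048 CPM against 2699 to 3295 CPM (log2 1.06, SE 0.16, adjusted p = 0.00737). In each of the 3 genes the mimic library of 22 August was higher than the control library of that date.

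The other mitochondrial mRNAs had differences of 0.59 to 1.01 without passing the test. MT-ATP6, a subunit of ATP synthase whose gene overlaps the start of MT-CO3, had 8912 and 5744 CPM against 3253 to 4595 CPM (log2 0.85, adjusted p = 0.0674). MT-ND4, a subunit of complex I, had 16455 and 9699 CPM against 6427 to 7602 CPM (log2 0.87, adjusted p = 0.0745). MT-ND5, another complex I subunit, had the smallest difference of the 13 (log2 0.59). In 11 of the 13 genes (84.6%) both libraries of 22 August were above all later ones, beside 6.26% of all tested genes. With DESeq2, 10 of the 13 were called, beside 89 higher genes of 16689 tested. In edgeR with no filter on low counts all 13 were called, beside 130 higher genes of 28658. That setting also called HBB lower, whose counts were high in 1 library only. The median was 1.15 between mimic libraries and 0.59 between control libraries.

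**Figure D2:**
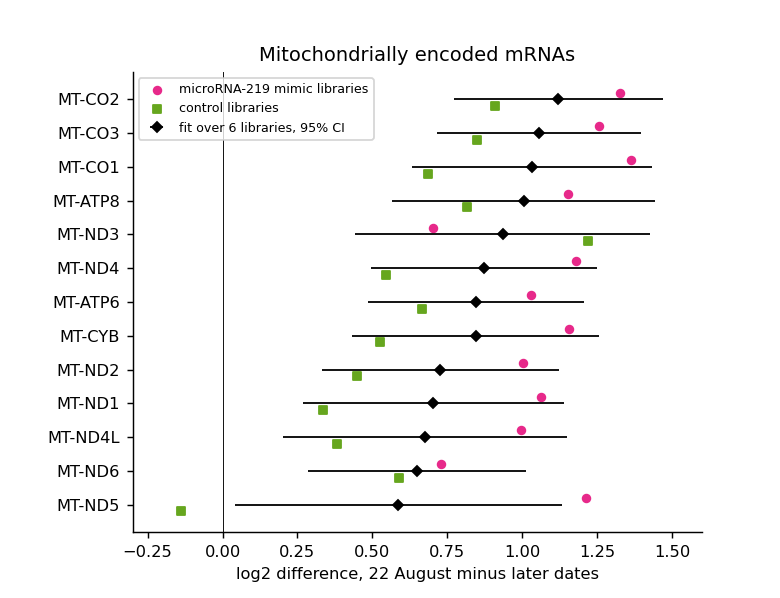
Log2 difference of the 13 mitochondrially encoded mRNAs, 22 August minus the later dates, as the estimate over 6 libraries with its 95% confidence interval (diamonds) and within each mimic (circles and squares). All 13 estimates lie above 0; in the control libraries MT-ND5 lies below 0.

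Mitochondrially encoded genes made up 13.3% of counts in the mimic library and 8.39% in the control library of 22 August. Later they made up 6.25% and 7.27% in mimic libraries, and 5.66% and 6.48% in control libraries. Both values of 22 August were above all 4 later ones, with means of 10.8% ± 3.44 (SD, n = 2) and 6.42% ± 0.666 (SD, n = 4). The difference of 4.41 percentage points had p = 0.133 in a two-sided exact permutation test, the smallest that 2 libraries against 4 allow (0.178 after adjustment over 4 measures). Unlike the main fit, that test did not pair libraries by mimic. Leaving out the mimic library of 22 August, the difference was 1.98 points.

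Nuclear genes for the respiratory chain stood near the median of all tested genes. Among 42 tested members, 24 were above 0, 0 were called by edgeR, and the median was 0.01 (-0.25 between mimic libraries and 0.19 between control libraries). NDUFV1, a complex I subunit, had 68.5 and 82.1 CPM against 51.5 to 74.2 CPM (log2 0.29, adjusted p = 0.9999).

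The called entry hsa-mir-6723 is annotated as a pseudogene (hg19 chr1:566454-567996, plus strand), among nuclear copies of mitochondrial genes. It had 67.3 and 47.8 CPM on 22 August and 19.5 to 31.7 CPM later (log2 1.22, SE 0.22, adjusted p = 0.0365). MTATP6P1, the copy of MT-ATP6 in the same stretch of the chromosome, had 564 and 352 CPM against 155 to 286 CPM (log2 1.05, adjusted p = 0.120). All 4 tested copies were above 0, with a median of 1.08. Reads of such copies and of the mitochondrial genes they derive from may have been assigned to either, so the entry is uncertain as a gene of its own and says nothing of a mature microRNA.

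RP11-288L9.4 lies antisense within IFI6 (hg19 chr1:27995979-27996787, plus strand), and IFI6 itself is a called interferon effector. It had 27 and 16 counts on 22 August and 0, 1, 2 and 2 counts in the later libraries (log2 3.91, SE 0.67, adjusted p = 0.0258). IFI6 had 99.8 and 150 CPM against 12.98 to 23.3 CPM (log2 2.80). Without a stated strand setting the reads of this pair cannot be told apart.

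CCL5, a chemokine that draws T cells and is induced by NF-kB and interferon regulatory factors, had 1.90 and 1.35 CPM on 22 August. The later mimic libraries had 0.317 and 0.324 CPM and the later control libraries 0.473 and 0.427 CPM, from 7 to 16 counts each. Its log2 difference was 2.06 (SE 0.37, adjusted p = 0.0399), and it did not pass with library size alone (0.0635), with 3 dates (0.1149) or against 5 September alone (0.0745). CCL5 lies on hg19 chr17:34198495-34207797 (minus strand) and overlaps the antisense gene AC015849.2, which had 3 to 32 counts per library. CCL5 was the 1 called gene among 19 tested NF-kB and inflammatory genes, beside 0.348% of all tested genes. Of the 19, 10 were above 0, with a median of 0.03. In that list SOD2, the mitochondrial superoxide dismutase, had 177 and 201 CPM against 157 to 180 CPM (log2 0.17, adjusted p = 0.9999), and NFKBIZ had a log2 difference of -0.50 (adjusted p = 0.9999).

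Among genes that did not pass in the main edgeR test, those with the lowest p above 0 outside the lists were, beside mitochondrial entries, TRIM69, RASGRP3, TGFB1, FXYD5, ONECUT3 and C6orf132. TRIM69, a ubiquitin ligase of the TRIM family, had 22.03 and 23.4 CPM on 22 August and 11.03 to 14.7 CPM later (log2 0.86, adjusted p = 0.0689). TGFB1, the growth factor, had 153 and 111 CPM against 63.5 to 79.6 CPM (log2 0.83, adjusted p = 0.0928). RASGRP3, an exchange factor for Ras, had 3.14 and 3.14 CPM against 1.13 to 1.48 CPM (log2 1.27, adjusted p = 0.0833). In all 3 both libraries of 22 August were above all later ones, as in 6.26% of all tested genes. The 3 were picked by low p from these same values. All 3 passed in edgeR with no filter on low counts, a setting that also called HBB, high in 1 library only.

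On the lower side, the genes with the lowest p were CNTN1, PDE3A, ZNF804A, IGSF11, KCNJ3, NELL2, EPHA3, CLCN5, ID3 and SYT4. None passed in the main edgeR test. With no filter on low counts edgeR called 8 of these 10 lower, all but CLCN5 and ID3. That setting also called HBB lower, whose counts were high in 1 library only. Without the mimic term edgeR called CNTN1, and with date as 3 levels NELL2 (log2 -0.96, adjusted p = 0.0365). DESeq2 called CNTN1, NELL2 and PDE3A. CNTN1, a cell adhesion protein of axons, had 1.35 and 1.15 CPM on 22 August against 2.81 to 4.397 CPM later (log2 -1.45, SE 0.29, adjusted p = 0.0745). PDE3A, a cyclic nucleotide phosphodiesterase, had 0.794 and 0.397 CPM against 1.45 to 2.33 CPM (log2 -1.73, adjusted p = 0.120). KCNJ3, an inwardly rectifying potassium channel, had 2.14 and 1.87 CPM against 3.35 to 5.27 CPM (log2 -1.08, adjusted p = 0.238). EPHA3, an ephrin receptor, had 4.49 and 3.73 CPM against 6.77 to 9.44 CPM (log2 -0.91, adjusted p = 0.270). In these 4 genes both libraries of 22 August were below all later ones, as in 5.46% of all tested genes. The 4 were picked by low p from these same values.

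A fit with 3 dates separated both later ones. Against 5 September, 45 genes were higher on 22 August (0.27%) and 0 lower (0%, with 516 at an unadjusted p under 0.05 in edgeR). Of the 45, 41 were in the interferon lists, and the others were RNA28S5, MT-CO2, hsa-mir-6723 and MTATP6P1. Against 18 September, 44 were higher (0.264%), 37 of them in the lists, and 3 were lower (0.018%). Comparing 18 with 5 September gave 0 higher genes (0%, with 1349 at an unadjusted p under 0.05) and 2 lower ones (0.012%). These comparisons share libraries. With the 4 libraries of 22 August and 18 September fitted alone, 275 genes were higher and 155 lower.

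Of the 7 genes outside the lists that were higher than on 18 September, RNA28S5 also passed against 5 September, while KRT17, EGR1, CTGF, MALAT1, CYR61 and ANKRD1 did not; whether the size of the differences differed was tested as 18 against 5 September, where CTGF and ANKRD1 passed. CTGF, a matricellular target of the Hippo pathway effectors YAP and TAZ, had 136 and 232 CPM on 22 August, then 120 and 188 on 5 September, and at last 33.4 and 43.5 on 18 September. Its log2 difference was 2.22 against 18 September (adjusted p = 0.00187) and 0.24 against 5 September (adjusted p = 0.728), and 18 September was lower than 5 September by a log2 difference of -1.98 (adjusted p = 0.0186). ANKRD1, another YAP target, had 73.5 and 79.8 CPM, then 94.1 and 87.9, then 26.01 and 22.35 CPM. CYR61, a secreted matricellular protein and also a YAP target, had 131 and 213, then 158 and 184, then 63.4 and 70.8 CPM. KRT17, a keratin, had 19.6 and 21.1, then 11.4 and 11.6, then 5.32 and 4.65 CPM, with the libraries of 22 August highest. These genes had their lowest levels on 18 September.

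The 3 genes lower on 22 August than on 18 September had intermediate levels on 5 September. NELL2, a secreted neuronal glycoprotein, had 13.4 and 11.99 CPM on 22 August, then 19.2 and 19.6, then 32.95 and 30.04 CPM (log2 -1.31 against 18 September, adjusted p = 0.0174). GPM6A, a neuronal membrane protein, had 5.22 and 8.38, then 8.17 and 10.4, then 16.2 and 20.3 CPM (log2 -1.45, adjusted p = 0.0238). KCNK2, a two-pore-domain potassium channel, had 2.83 and 2.82, then 4.26 and 3.73, then 8.70 and 9.82 CPM (log2 -1.71, adjusted p = 0.0250).

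In the other gene lists, edgeR called 0 members in the main test. With date as 3 levels it called KRT17 and CTGF, both in the list of YAP targets. With 18 September alone it called further members, among them FOSL1, HSPA5, TPX2, MMP2 and FN1 higher and INSIG1 lower. That setting called 275 higher and 155 lower genes of 16689 tested. Targets of p53 had 10 of 23 tested genes above 0 and a median of -0.01, with CDKN1A, the cyclin-dependent kinase inhibitor p21, at 272 and 259 CPM against 197 to 238 CPM (log2 0.27, adjusted p = 0.9999). ATF4 and unfolded protein response genes had 23 of 36 above 0 and a median of 0.07. In that list HSPA5, the endoplasmic reticulum chaperone BiP, had 675 and 938 CPM against 409 to 672 CPM (log2 0.56, adjusted p = 0.874). Heat shock, hypoxia and glycolysis, NRF2 and glutathione, and sterol synthesis genes had medians of 0.06, 0.04, 0.05 and -0.004. Cell cycle genes had a median of 0.08, and both libraries of 22 August were above all later ones in 10 of 38 (26.3%), beside 6.26% of all tested genes. Histone genes had a median of 0.07, and silencing complex genes -0.05.

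Extracellular matrix genes had 29 of 34 tested members above 0 and a median of 0.28, with 0 called. Their median was 0.50 between mimic libraries and 0.07 between control libraries, and 0.15 against 5 September and 0.44 against 18 September. FN1, which encodes fibronectin, had 527 and 335 CPM on 22 August and 218 to 481 CPM later (log2 0.43, adjusted p = 0.9999), with the dates overlapping. MMP2, a gelatinase, had 12.5 and 10.2 CPM against 4.98 to 9.14 CPM (log2 0.81, adjusted p = 0.613). YAP targets had a median of 0.13, which was -0.06 against 5 September and 0.36 against 18 September.

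**Figure D3:**
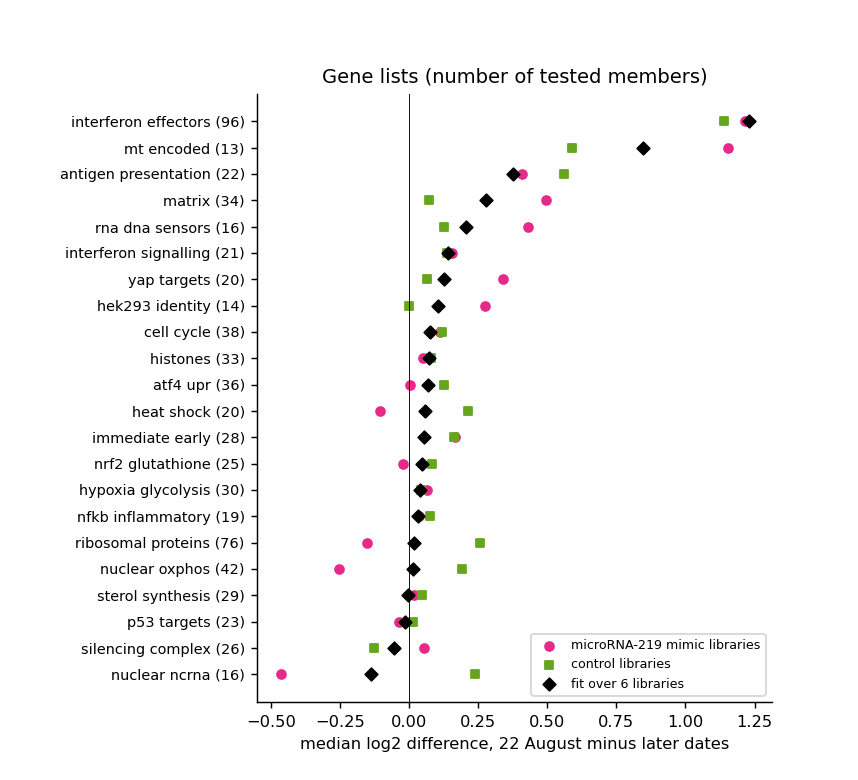
Median log2 difference, 22 August minus the later dates, of each gene list over its tested members, from the fit over 6 libraries (diamonds) and within each mimic (circles and squares). Interferon effectors (1.23) and mitochondrially encoded genes (0.85) have the highest medians, and the mimic and control values lie on opposite sides of 0 for ribosomal protein and nuclear respiratory chain genes.

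Ribosomal protein genes had a median of 0.02 over 76 tested members, made up of -0.15 between mimic libraries and 0.26 between control libraries. RPS6, a protein of the small subunit, had 1776 and 2143 CPM on 22 August against 1052 to 1805 CPM later (log2 0.45, adjusted p = 0.9999). Nuclear noncoding RNAs likewise had -0.46 between mimic libraries and 0.24 between control libraries. The interaction of date and mimic was called for 0 genes (0%) by edgeR, with 859 at an unadjusted p under 0.05, and for 0 by DESeq2, with 590.

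Across genes above a mean of 1 CPM, the date difference measured in the mimic libraries was set against that in the control libraries, which share no library. Over 140 interferon-list genes Pearson's r was 0.931, and over 13902 genes outside the lists it was -0.118. The same measure for 18 minus 5 September was 0.549 outside the lists and 0.348 within them. These values are across genes, which are not independent replicates, and they describe these libraries. The interferon lists were chosen with earlier results of these data known, so the contrast between r within and outside them is partly set by that choice. Outside the lists, the difference of 22 August from the later dates in the mimic libraries thus did not run with that in the control libraries, while the difference between the later dates did.

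**Figure D4:**
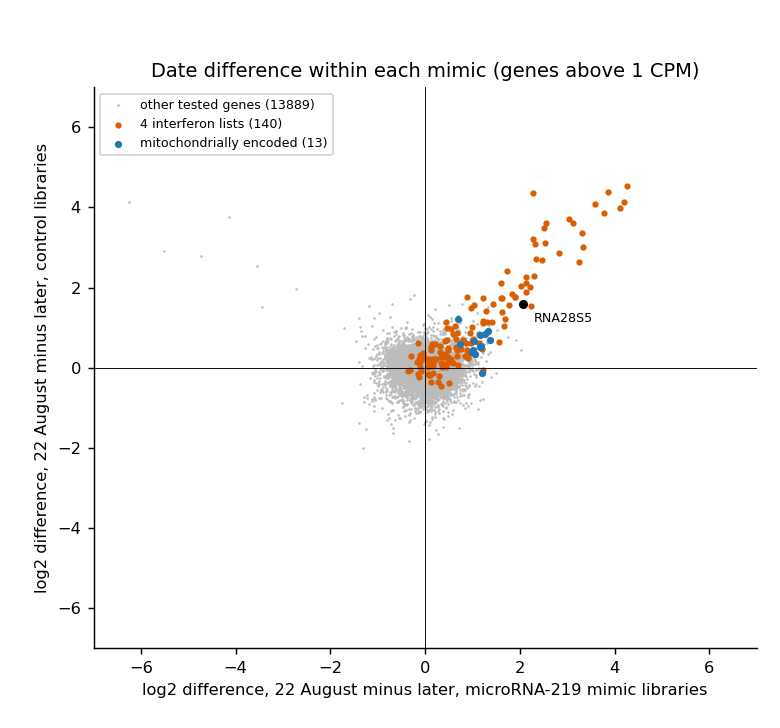
Log2 difference of each gene above 1 CPM, 22 August minus the later dates, in the microRNA-219 mimic libraries (horizontal) against the control libraries (vertical). Interferon-list genes follow the diagonal (r = 0.931 over 140 genes), other genes do not (r = -0.118 over 13902 genes including 13 mitochondrial ones).

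Gene length moved with these differences. Protein-coding genes were divided by length into 5 groups of near equal size. In the shortest group (78 to 2081 bases), the median difference of 22 August from the later dates was -0.11 in the mimic libraries and 0.11 in the control libraries. In the longest group (5516 to 109224 bases) it was 0.12 and -0.15. Over all 6 libraries the medians of the 5 groups lay between -0.02 and 0.02. With the length trend removed, r outside the lists was -0.058 for 22 August against later and 0.484 for 18 against 5 September, and edgeR called 82 higher genes, 20 of them outside the lists, and 0 lower. The part of length in single genes was not tested.

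**Figure D5:**
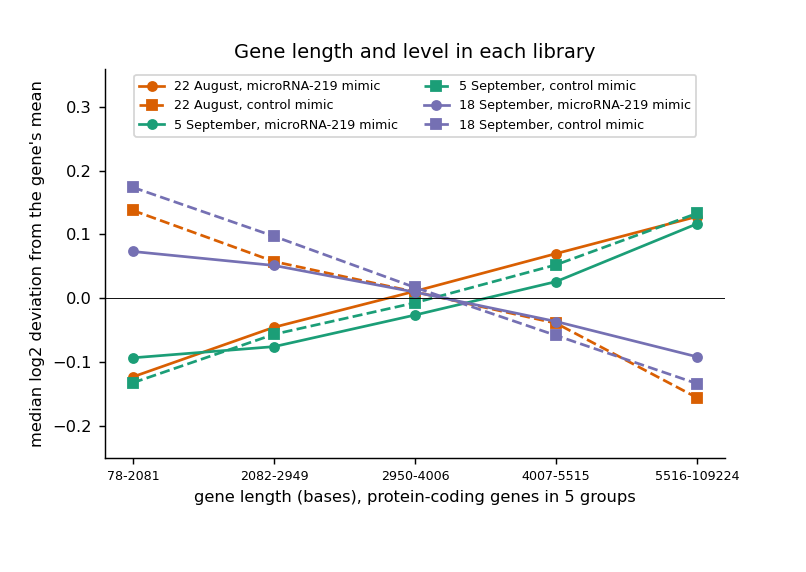
Median log2 deviation of protein-coding genes from their mean over the 6 libraries (vertical), by gene length group in bases (horizontal), 1 line per library. The mimic and control libraries of 22 August slope in opposite directions, those of 5 September both rise with length and those of 18 September both fall.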

How the data were processed

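The deposited table holds whole-number counts per gene for 6 libraries, read as counts as the authors give them, with gene length as another column of the deposited file; 0 columns of per-sample values were left unmapped. The submitters' processing notes name STAR 2.5, HTSeq 0.6.1, DESeq2 and the hg19 build, without saying which step each served. Whether counting used strand, and the annotation release, are not given in the sources used here. Groups and dates are those of the labels.

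The main test was the quasi-likelihood F test in edgeR 4.0.16 (R 4.3.3). Genes were kept by filterByExpr at a minimum count of 10 and a minimum total of 15, and libraries were scaled by TMM. The model had a date term (22 August or later) and a mimic term, which pairs libraries by mimic, leaving 3 residual degrees of freedom. The adjusted p threshold was 0.05. Differences within each mimic used log2 CPM with a prior count of 2, and length trends were removed by lowess with a span of 0.3. limma 3.58.1 and DESeq2 1.42.0 served as alternatives; Python 3.11.15, pandas 2.3.3, scipy 1.17.1 and matplotlib 3.10.9 made tables and figures. The common dispersion was 0.0272, and libraries correlated at 0.9946 or more. The code was tested on simulated data.

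The comparison and the 24 gene lists were chosen with earlier results of these data known. Named genes were the 12 called interferon-list genes with the lowest p and up to 2 more per interferon list, all called genes outside, the 10 higher and 10 lower genes not called with the lowest p, the 2 lowest-p members and the most abundant member of each other list, and AGO2; further genes were named after their values were seen. Some genes are not reported here.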

Additional observations from a re-analysis of the deposited data

Results flagged for a closer look

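Among the 4 later libraries, 7 of 123 checked values had 1 library far from the other 3 by Dixon's criterion; chance gives about 1 in 20. IFIT3 had 23.0 CPM in the mimic library of 5 September, above the other later libraries and well below both libraries of 22 August. SESN2, a stress-induced p53 target, was highest in the control library of 5 September (529 CPM), where KRT8, a keratin of HEK293 cells, was lowest (513 CPM). The noncoding host gene SNHG16 was highest in the control library of 18 September at 124.5 CPM. The summed CPM of p53 targets was 2062 in the mimic library of 18 September, and that of nuclear noncoding RNAs was 949 in the mimic library of 5 September. The summed CPM of blood markers was 689 in the control library of 5 September, nearly all of it from HBB; that library also changed the counts of called genes most when left out.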

How the results depend on the processing

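The 58 higher genes were all called again with DESeq2 size factors, with no filter, with DESeq2, without the mimic term, with 18 September alone and with the length trend removed, an alternative chosen after seeing the data. The count of higher genes was 130 with no filter, 89 with DESeq2 and 275 with 18 September alone, and ranged from 31 to 183 with 1 library left out. The count of lower genes, 0, became 19 with no filter, 3 with DESeq2, 1 without the mimic term (no pairing block), 1 with 3 dates and 155 with 18 September alone, and ranged from 0 to 53 with 1 library left out. The 7 called genes outside the interferon lists became 4 with library size alone, 77 with no filter, 30 with DESeq2, 11 without the mimic term, 353 with 18 September alone, 4 without AGO2 and mitochondrial genes and 20 with the length trend removed, and ranged from 1 to 163 with 1 library left out. The lowest counts came without either library of 22 August and the highest without the control library of 5 September. Without AGO2 and mitochondrial genes, MT-CO1, MT-CO2 and MT-CO3 were not tested, and the other 4 were still called. The interaction gave 35 genes with no filter. The cause was not tested. Library size alone moved the median of all genes to -0.12.

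Of 1659 values of named genes by alternative, 1442 kept their direction and side of the threshold, 140 passed newly, 28 no longer passed and 49 changed sign, none of these from called genes. With 18 September alone the log2 difference was -0.15 for PRDX1, -0.015 for ATP5B, -0.11 for RPS4X, -0.030 for MCM7, 0.26 for AGO2, 0.15 for TUG1, -0.12 for CA1 and -0.10 for ACTB. With 5 September alone it was -0.16 for JUN, 0.13 for HIST1H2BK, 0.30 for IGJ and 1.02 for IGHA1. With library size alone it was -0.0085 for ATF4, -0.11 for PRDX1, -0.014 for RPS4X, -0.059 for MCM7 and -0.12 for ACTB, and with DESeq2 or its size factors -0.00172 for ACTB. IGHA1 had 0.53 without the mimic term and 0.30 with 3 dates. Leaving out 1 library gave ranges of -0.40 to 0.22 for SESN2, -0.013 to 0.30 for JUN, -0.057 to 0.26 for ATF4, -0.67 to 0.45 for FASN, -0.29 to 0.28 for PRDX1, -0.36 to 1.68 for NDUFB8, -0.037 to 0.23 for RPS4X, -0.23 to 0.18 for HIST1H2BK, -0.042 to 0.16 for MCM7, -0.25 to 0.12 for AGO2, -0.26 to 0.18 for TUG1, -0.10 to 0.89 for FN1, -6.02 to 0.082 for IGJ, -6.72 to 4.07 for IGLC2, -10.25 to 1.52 for IGHA1, -5.78 to 2.88 for CA1 and -0.047 to 0.059 for ACTB.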
